A study of Caenorhabditis elegans with 2 samples.

Results

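The nuclear genes atp-1, atp-2, atp-3, atp-4 and atp-5, which encode 5 subunits of the mitochondrial ATP synthase, and ant-1.1, ant-1.2, ant-1.3 and ant-1.4, which encode adenine nucleotide translocases, were examined for ChIP-seq peaks of the protein ZK546.5 in Caenorhabditis elegans. They were taken by name from the WBcel235 annotation and are 9 of 19973 nuclear protein-coding genes. Chromatin came from whole L4 larvae of mixed sex, strain OP231, which carries the allele unc-119(ed3) and the transgene wgIs231, a stable source of ZK546.5 with GFP and FLAG at its C-terminus. The labels give 2 biological replicates, 1 and 2, of this single group, so no condition was compared and every value below is a description. The labels also name a control experiment, which was not analysed here. The sources used here do not give the transgene's promoter or its level against the untagged gene. The samples are whole animals, so the tissue in which a gene was occupied cannot be told.

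ATP synthase sits in the inner mitochondrial membrane and makes ATP from ADP and phosphate as protons flow back into the matrix. Its F1 head holds alternating alpha and beta subunits around a rotating stalk, its membrane part holds a ring of c subunits, and a peripheral stalk keeps the head from turning with the rotor. Adenine nucleotide translocase exports the new ATP in exchange for ADP, and a phosphate carrier brings in the other substrate, so that synthase and carriers act as one supply line for ATP.

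The summit regions of 4 genes carry the contrast described below, and are shown for the bases of the 200 bp window centred on the strongest summit that lie outside annotated untranslated regions. They are ant-1.1 (ce11 chrIII:13463010-13463162, plus strand), the subunit c gene Y82E9BR.3 (chrIII:1418795-1418994, plus), the phosphate carrier gene F01G4.6 (chrIV:11149685-11149884, minus) and, for contrast, the beta subunit gene atp-2 (chrIII:5228040-5228239, plus). Each is written 5′ to 3′ on the strand of its gene, from the RefSeq WBcel235 genome. Capitals mark matches on either strand to any of 6 words that earlier results of these data had found to be frequent under reproducible peaks. They are ACCGTA, the overlapping pair formed by AGCGCG with GAGCGC, the word GCGCAC, the word ACGCAG and the longer word TGCGTCTC.
ant-1.1: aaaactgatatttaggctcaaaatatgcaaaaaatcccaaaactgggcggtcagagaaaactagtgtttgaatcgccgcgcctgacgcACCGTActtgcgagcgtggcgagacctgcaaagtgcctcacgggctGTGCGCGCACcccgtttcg
Y82E9BR.3: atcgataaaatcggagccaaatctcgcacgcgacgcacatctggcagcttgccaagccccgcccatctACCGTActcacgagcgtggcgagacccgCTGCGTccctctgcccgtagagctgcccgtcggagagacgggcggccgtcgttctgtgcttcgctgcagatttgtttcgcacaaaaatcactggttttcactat
F01G4.6: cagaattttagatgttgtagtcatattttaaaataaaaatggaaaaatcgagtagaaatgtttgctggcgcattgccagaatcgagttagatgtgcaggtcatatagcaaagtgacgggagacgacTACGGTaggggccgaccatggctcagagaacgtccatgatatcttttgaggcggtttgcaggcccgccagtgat
atp-2: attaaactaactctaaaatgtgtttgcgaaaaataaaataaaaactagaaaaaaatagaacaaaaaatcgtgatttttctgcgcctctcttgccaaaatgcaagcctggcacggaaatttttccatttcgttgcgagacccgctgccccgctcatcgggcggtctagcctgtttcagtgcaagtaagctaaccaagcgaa

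The ant-1.1 and Y82E9BR.3 windows shared a run of 16 identical bases on the same strand, the longest among the 55 pairs of the 9 members' windows and those of Y82E9BR.3 and F01G4.6. The median longest run of a pair was 9 bases and the shortest was 7. These runs were looked for after the windows had been seen. Each run was taken from windows centred on the summits of its pair. That it has copies near those summits therefore follows from the choice and says nothing about binding.
shared by ant-1.1 and Y82E9BR.3: cgagcgtggcgagacc
shared by Y82E9BR.3 and atp-2: gcgagacccgctgc
The run of 16 bases occurs 3 times in the genome. One copy is centred 5 bp from the ant-1.1 summit and one 15 bp from the Y82E9BR.3 summit, where its centre lies in exons of the non-coding RNA genes Y82E9BR.27 and Y82E9BR.30. The remaining copy, in an intron of D2030.12 on another chromosome, had no pooled summit within 100 bp. The run of 14 bases occurs 2 times, 8 bp from the Y82E9BR.3 summit and 38 bp from the atp-2 summit. Of the 55 pairs, those 2 were the only ones to share 14 or more bases, so no other ant-1 window shared such a run with that of ant-1.1.

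A reproducible summit lay within 1000 bp of an annotated 5′ end of 3 of the 9 genes, namely atp-1, ant-1.1 and atp-3. Reproducible peaks are those that the authors kept after an irreproducible discovery rate threshold, 304 peaks in all, which are also the 304 strongest of the 30000 pooled peaks. Among all nuclear protein-coding genes 352, or 1.76%, had such a summit. By kind of gene, 2 of 5 ATP synthase genes and 1 of 4 translocase genes had one. The genes were chosen with these peaks known, so the count was not tested against the share of all genes. With the 1000 strongest pooled peaks the count was 5 of 9, adding atp-2 and ant-1.2, where 4.23% of protein-coding genes had one.

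A pooled summit of any strength was near all 9 genes, which carried 16 of them, and near 53% of protein-coding genes. The authors describe the pooled and replicate lists as peaks and background, so a weak summit in them need not be a binding site. Signals below are the authors' own values for each peak, and served to rank peaks inside 1 list. Read depth is unknown, since the lists hold no read numbers.

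**Figure D1:**
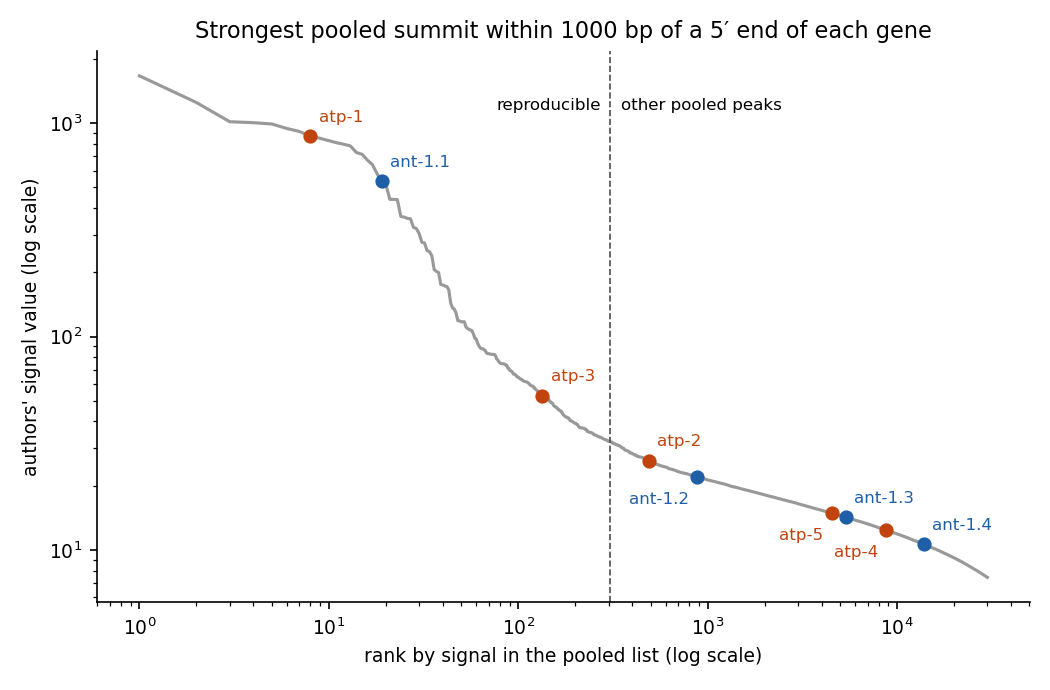
Authors' signal value (log scale) against rank (log scale) for the 30000 pooled peaks (grey line), with the strongest summit within 1000 bp of each gene marked in red for ATP synthase genes and blue for translocase genes; the dashed line ends the 304 reproducible peaks. atp-1, ant-1.1 and atp-3 lie left of it and the other 6 genes right of it.

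Within the F1 head, the alpha and beta subunit genes stood far apart. The peak of atp-1, the alpha subunit gene, had a pooled signal of 870 at rank 8 of 30000, and 13 protein-coding genes had a summit ranked as high. Its summit lay 2 bp upstream of the 5′ end, at I:12652275 in the peak I:12652087-12652493, and 115 bp upstream of the start codon. Another protein-coding gene, mcrs-1, starts 188 bp from this summit on the opposite strand, and the piRNA gene 21ur-12279 starts 110 bp from it. In replicate 1 the signal was 481 at rank 8, with the summit 14 bp downstream of the 5′ end in the 5′ UTR. In replicate 2 it was 387 at rank 9, with the summit 8 bp upstream. Both replicates placed it among their 9 strongest peaks.

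The beta subunit gene atp-2 had no reproducible summit. Its strongest pooled summit, 277 bp upstream of the 5′ end at III:5228140, had a signal of 26.2 at rank 490, and the pooled signal of atp-1 was 33.3 times as high. This is the member nearest below the reproducible list, whose weakest peak had a signal of 32.2. In replicate 1 the summit at 280 bp upstream had a signal of 19.2 at rank 294, which is within the 304 strongest of that list. In replicate 2 no summit lay within 100 bp of it, and the only summit near the gene was 479 bp downstream of the 5′ end in a coding exon, with a signal of 14.2 at rank 1088. The upstream summit lies between atp-2 and the divergent genes C34E10.10 (256 bp) and C34E10.12 (259 bp), both slightly nearer to it.

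The members atp-3, atp-4 and atp-5 encode peripheral stalk subunits, and 1 of these 3 had a reproducible summit. It was atp-3, which encodes the oligomycin sensitivity conferral protein that joins the stalk to the head, with a pooled signal of 52.9 at rank 134. The summit, at I:5429978, was 70 bp upstream of the outermost of 4 annotated 5′ ends, in exons of the non-coding RNA genes F27C1.16 and F27C1.17. In replicate 1 it had a signal of 24.0 at rank 210, and in replicate 2 24.6 at rank 151, at 34 and 32 bp upstream. F27C1.17 starts 46 bp from the pooled summit, nearer to it than atp-3. Another protein-coding gene, F27C1.2, starts 179 bp from the pooled summit on the opposite strand.

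The other 2 of these members were near weak summits. For atp-5, which encodes subunit d, the pooled summit 273 bp upstream had a signal of 14.9 at rank 4530, and lmtr-3 starts 46 bp from it. Replicate 1 had a summit at the same base with a signal of 13.7 at rank 726, and replicate 2 had none within 1000 bp of atp-5. For atp-4, which encodes coupling factor 6, the strongest pooled summit was 400 bp upstream with a signal of 12.4 at rank 8769, in the 3′ UTR of the neighbouring gene alh-4. The ranks near atp-4 were 13617 in replicate 1 and 17995 in replicate 2. Neither gene had a summit among the 304 strongest peaks of either replicate.

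**Figure D2:**
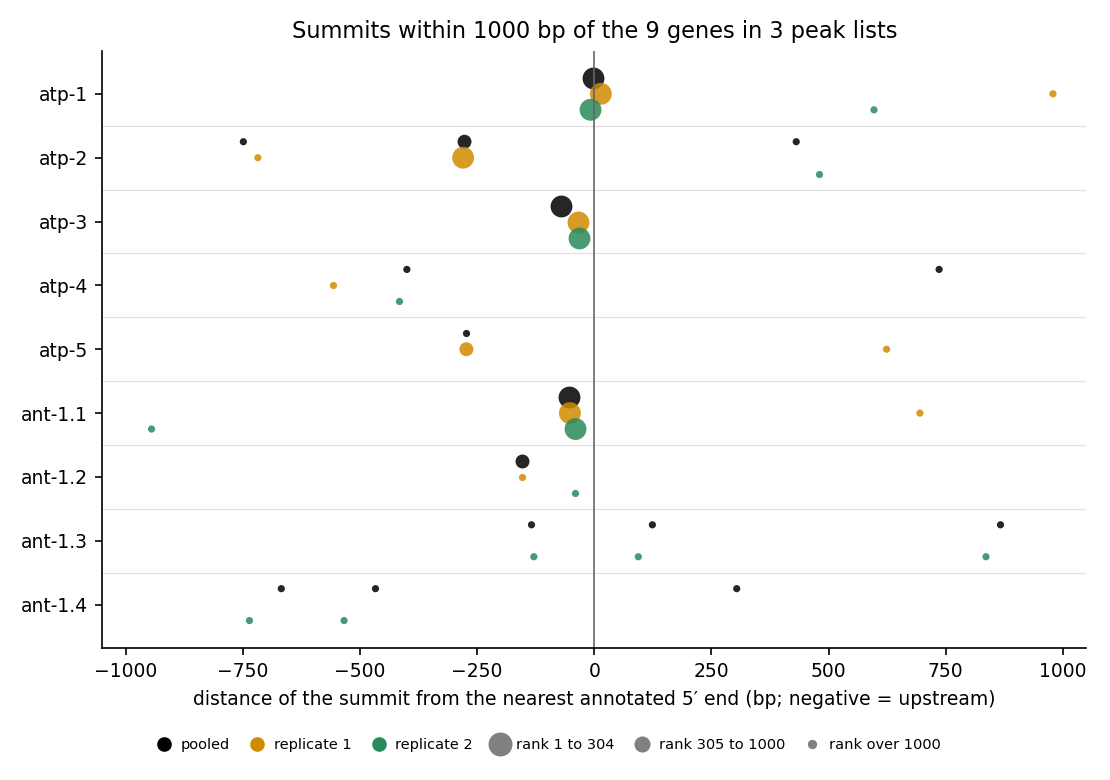
Position of every summit within 1000 bp of the nearest annotated 5′ end (x axis, bp, negative is upstream) for the 9 genes in the pooled list and both replicate lists (colours), with dot size giving the rank class within the list. Large dots of all 3 lists stack within 100 bp of the 5′ end of atp-1, atp-3 and ant-1.1. Elsewhere the only large dot is that of atp-2 in replicate 1, 280 bp upstream, and smaller dots scatter on both sides.

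The 4 translocase paralogs also stood far apart. ant-1.1 had a pooled signal of 535 at rank 19, with the summit 53 bp upstream of the 5′ end at III:13463110 in the peak III:13462952-13463318. It ranked 19 in replicate 1 as well, with a signal of 291, and 19 in replicate 2, with a signal of 250, with summits 52 and 40 bp upstream. Its pooled signal was 24.4 times that near ant-1.2, 37.7 times that near ant-1.3 and 50.4 times that near ant-1.4. With summits within 500 bp only, an alternative added after seeing the data, the ratio to ant-1.3 was 61.1, the highest of the 3, since its summit 867 bp downstream then drops out. The summit also fell within 1000 bp of T27E9.2, which encodes subunit 6 of the cytochrome bc1 complex and starts 526 bp away on the opposite strand, and of abcf-2, 872 bp away.

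A further reproducible peak had its summit inside the ant-1.1 gene but outside the window. Its summit, at III:13464576, was in the 3′ UTR of ant-1.1, 1413 bp downstream of the 5′ end and 76 bp before the annotated end of the gene, with a pooled signal of 60.9 at rank 112. It lies 244 bp upstream of the 5′ end of kel-3, the nearest protein-coding gene, to which the distance rule assigns it. The peak ranked 106 in replicate 1 and 182 in replicate 2, by the summits 1411 and 1353 bp downstream of the ant-1.1 start. ant-1.1 was the only member with a reproducible summit between 1000 and 5000 bp from a 5′ end. The farthest pooled summit inside the window was that of ant-1.3 at 867 bp, and the nearest one outside was at 1102 bp from ant-1.1, with signals of 14.2 and 18.5.

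The remaining paralogs had weak summits that changed with the replicate. ant-1.2, a gene of 1 exon whose annotated 5′ end is its start codon, had a pooled signal of 22.0 at rank 882, 154 bp upstream. Replicate 1 had a summit at that base at rank 1782, and the nearest summit in replicate 2 was 41 bp upstream at rank 22132. ant-1.3 and ant-1.4 had no summit within 1000 bp in replicate 1. In replicate 2 the strongest near ant-1.3 lay 836 bp downstream of its 5′ end in a coding exon (signal 11.5, rank 2914), and the strongest near ant-1.4 lay 534 bp upstream in intergenic sequence (signal 14.0, rank 1207). The pooled rank was 5368 for ant-1.3 and 13910 for ant-1.4, where the median over the 10590 protein-coding genes with a pooled summit was 11150. Within 500 bp the rank of ant-1.3 was 22100. The median is for summits within 1000 bp and was not computed at 500 bp, so the 2 are not compared.

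The paralogs were more alike in coding sequence than around their 5′ ends. Coding identity in global alignment was 93.6% between ant-1.3 and ant-1.4, 78.6 to 78.9% between either and ant-1.1, and 70.5 to 70.8% between ant-1.2 and any of the others. From 250 bp before to 50 bp after the 5′ end, identity was 62.2% between ant-1.3 and ant-1.4 and 39.0 to 43.4% in the other pairs. The longest run shared by coding sequences was 50 bases, between ant-1.3 and ant-1.4. The sources used here do not say how reads that match both copies were placed, so weak summits within these 2 genes are uncertain.

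The strongest pooled summit of a member was found in both replicates for the 3 genes with a reproducible summit and in 1 replicate for the other 6. A match was a summit within 100 bp. Those of atp-2, atp-5 and ant-1.2 were matched in replicate 1 only, and those of atp-4, ant-1.3 and ant-1.4 in replicate 2 only. Among all pooled peaks, 90.5% of the 304 strongest were matched in both replicates, 56.6% of ranks 305 to 1000, 20.2% of ranks 1001 to 10000 and 3.63% beyond. The 3 matched summits lay between 1 and 38 bp from the pooled summit.

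**Figure D3:**
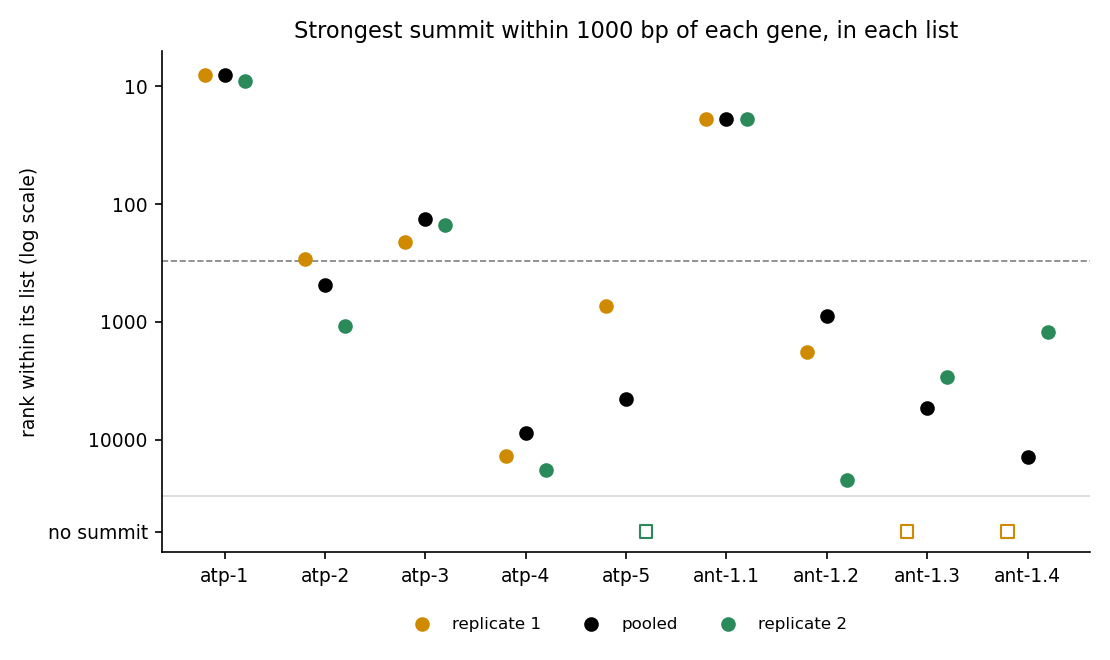
Rank (log scale, strongest at the top) of the strongest summit within 1000 bp of each gene in replicate 1, the pooled list and replicate 2; open squares mark lists with no summit there and the dashed line is rank 304. The 3 ranks of atp-1 and of ant-1.1 nearly coincide, while those of ant-1.2 run from 882 to 22132.

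Of the 6 words, 2 were in the window of each of the 3 members with a reproducible summit, and 0 in those of the other 6 members. ACCGTA was in the 200 bp windows of atp-1, centred 0.5 bp from the summit, and of ant-1.1, centred 9.5 bp away, both on the strand of the gene. AGCGCG was in the atp-1 window, GCGCAC in that of ant-1.1, and GAGCGC and ACGCAG in that of atp-3. TGCGTCTC was in no member's window. At least 1 word was in 65.5% of the 304 reproducible windows and in 16.3% of the 30000 pooled windows, and ACCGTA in 21.4% and 5.44%. GAGCGC overlaps AGCGCG in 5 bases. The words had been picked from these reproducible peaks, so their presence here is not independent of that choice. The windows also differed in GC content, 55.5% at ant-1.1, 45.5% at atp-1 and 41.5% at atp-3, against 25 to 48.5% at the other 6, with a median of 34.5% over all pooled windows.

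The ATP supply line held 2 further genes with peaks of similar rank. F01G4.6, the phosphate carrier gene, had a pooled signal of 829 at rank 10, with ranks of 7 in replicate 1 and 13 in replicate 2. Its summit was 281 bp upstream of its 5′ end, with the non-coding RNA gene C08F8.13 nearest (15 bp) and pfd-1 divergent at 328 bp. Y82E9BR.3, the subunit c gene, had a signal of 366 at rank 24, with rank 27 in both replicates. Its summit, the stronger of 2 reproducible ones within 1000 bp of its 5′ end, was 301 bp upstream. That summit was nearer to Y82E9BR.27 (50 bp) and Y82E9BR.30 (94 bp). As the sequences above show, ACCGTA was in the windows of F01G4.6 and Y82E9BR.3, centred 29.5 bp from the summit in each. Most genes of these kinds had no reproducible summit. One was near 2 of 5 ATP synthase members, 1 of 4 translocase genes, 1 of 12 other ATP synthase genes and 1 of 13 other carrier genes. The share of all protein-coding genes was 1.76%. F01G4.6 and Y82E9BR.3 were listed with earlier results of these data known, so these counts were not tested.

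Of 12 other ATP synthase genes, Y82E9BR.3 alone had a reproducible summit. The next were F58F12.1, the delta subunit gene (rank 541, signal 25.1), mai-1, an ATPase inhibitor gene (rank 951), hpo-18, the epsilon subunit gene (rank 1303), R04F11.2 for subunit e (rank 2193) and Y69A2AR.18 for the gamma subunit (rank 2438). The genes asb-1 and asb-2 for subunit b, also of the peripheral stalk, ranked 18272 and 3165, and asg-1, for subunit g, had no pooled summit within 1000 bp. Over all 17 listed nuclear ATP synthase genes, the inhibitor genes mai-1 and mai-2 included, 3 had a reproducible summit, 2 of them members. The share of all protein-coding genes was 1.76%. Members and lists were chosen with earlier results of these data known, so these values were not tested. The median best rank of the 16 with a pooled summit was 2316, against 11150 for all protein-coding genes with one. It was 2438 for the other ATP synthase genes alone. The same median was 13678 for the other carrier genes and 6415 for carriers and complexes I to IV together.

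Of 13 other carrier genes, F01G4.6 alone had a reproducible summit, and 5 of the 13 had no pooled summit. Among respiratory chain genes, reproducible summits were near 3 of 33 complex I genes (nduc-2, 68.4; ndua-8, 61.4; nuo-1, 33.0), 0 of 4 complex II genes, 1 of 12 genes of complex III and cytochrome c, and 3 of 15 complex IV genes (cox-5B, 118; cox-5A, 78.4; cox-6B, 68.4), where values are pooled signals. The complex IV list holds every gene with a cox symbol, so it mixes subunits with assembly factors. The complex III gene was T27E9.2, through the peak at ant-1.1, and cox-6B and nduc-2 shared 1 peak. Y71H2AM.20 starts nearer to that shared summit (114 bp) than cox-6B (140 bp) and nduc-2 (790 bp). For ndua-8 (268 bp), rbc-2 (106 bp) and Y54F10AM.15 (116 bp) start nearer to the summit. For nuo-1 (184 bp), the non-coding RNA genes C09H10.13 (52 bp) and C09H10.11 (105 bp) do. In all, 8 of these 77 genes were near 7 reproducible peaks, where the share of all protein-coding genes was 1.76%. With 1 nearest protein-coding gene per summit the count was 4, where that share was 1.13%. The lists were chosen with earlier results of these data known, so these counts were not tested. The peak of nuo-1 had no match in replicate 1.

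**Figure D4:**
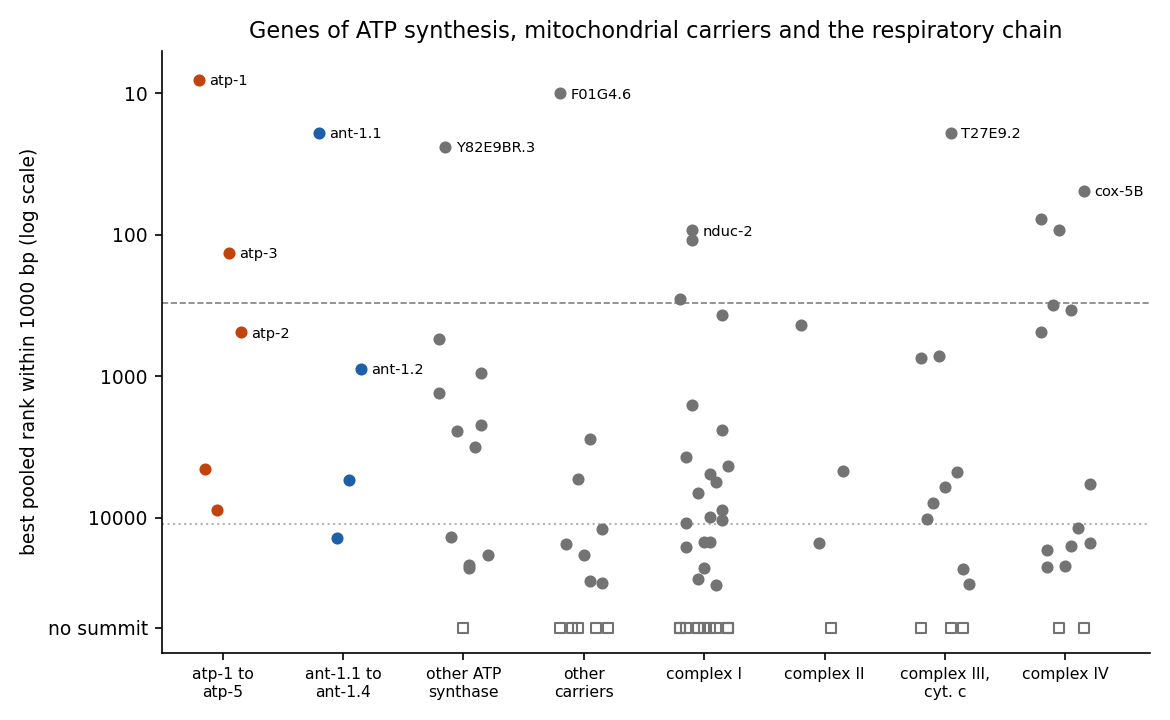
Best rank of a pooled summit within 1000 bp of a 5′ end (log scale, strongest at the top) for each gene of the 9 members (coloured) and of 6 lists of related genes (grey), with open squares for genes without one; the dashed line is rank 304 and the dotted line the median, 11150, of protein-coding genes with a pooled summit. Of these groups all but complex II have 1 to 3 genes above the dashed line, and the other genes spread to far lower ranks.

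The genes closest in rank to these members came from other pathways. Next to atp-1 were the summits of sqd-1 (rank 7, 914) and rfc-4 (rank 9, 849), next to ant-1.1 those of tmem-107 (rank 18, 579) and ntl-2 (rank 20, 519), and next to atp-3 those of rpl-23 (rank 133, 53.0) and kin-14 (rank 135, 52.8). Likeness here is a difference of 1 in pooled rank over both replicates together, and each gene is the protein-coding one nearest to its summit.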

How the data were processed

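Per the deposited text files that come with the lists, the authors made each replicate list from the alignments of 1 replicate and a control file, the pooled list from both replicates, and the reproducible list by applying an irreproducible discovery rate threshold. The sources used here name no aligner or caller. The unit used is the authors' deposited signal value per peak, whose scaling between lists is not given, so signals were compared within a list only. Summits were the peak start plus the last column. The ce10 lists were not used. Coordinates are 1-based ce11, the same build as the WBcel235 genome and Ensembl release 115 annotation used here.

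Summits within 1000 bp of any annotated 5′ end were assigned to a gene with Python 3.11.15 and pandas 2.3.3, and summits within 100 bp were taken as the same peak. The assignment was tested on simulated summits at known distances. Words were searched on both strands of 200 bp windows. Identity came from global alignment with Biopython 1.88, of coding DNA in place of the planned protein sequences, which were not used here. No p-value was computed, because there was 1 group of 2 samples. Nothing in the labels says more of the replicates than that they are biological. Members, gene lists, words and rules were chosen with earlier results of these data known. All 9 members were named, of other lists the genes with a reproducible summit and the next few of the ATP synthase list, which were added after their ranks were seen, the genes nearer to a summit, and the genes next in rank. Alternatives were other distances, thresholds, 5′ ends, assignments and window lengths, and either replicate alone.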

Additional observations from a re-analysis of the deposited data

Results flagged for a closer look

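The list of replicate 1 held 25 peaks on the mitochondrial genome, and those of replicate 2 and of the pooled reads held 0. The strongest ranked 20 in that list with a signal of 286, just below ant-1.1 at rank 19, and 23 were among its 304 strongest peaks. Within 1000 bp of the start of ATP6, the ATP synthase subunit gene of the mitochondrial genome, 3 summits lay in that list, the strongest at rank 51 with a signal of 94.7. What separates the lists here was not tested. Without these peaks (an alternative added after seeing the data), atp-1 and ant-1.1 had the same ranks in replicate 1, and atp-3 ranked 188 in place of 210.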

How the results depend on the processing

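The count of 3 members with a reproducible summit held at distances of 200, 500 and 2000 bp, with the 152 stronger reproducible peaks, with outermost 5′ ends and with 1 nearest protein-coding gene per summit. With 1 replicate left out there is no reproducible list, so the 304 strongest peaks of the other replicate's list took its place. The count then ranged from 3 to 4, and reproducibility was not assessed. The fourth was atp-2 in replicate 1 alone, with or without mitochondrial peaks (without them added after seeing the data). The other ATP synthase genes numbered 0 of 12 at 200 bp. The carrier and respiratory genes numbered 3 of 77 at 200 bp and 4 with 1 nearest gene per summit. With 1 nearest gene per summit, T27E9.2, ndua-8, nduc-2 and cox-6B dropped out. The share of all protein-coding genes was 1.39% at 500 bp, 0.656% at 200 bp, 2.44% at 2000 bp, 1.06% with those 152 peaks, 1.13% with 1 nearest gene and 1.56 to 1.68% with 1 replicate left out. At 200 bp the median best rank was 134, over the 5 members that then had a pooled summit. The rank of ant-1.3 became 22100 at 500 and 200 bp. Words found numbered 5 in 100 bp and 7 in 300 bp windows, against 6 of 54 pairs of gene and word. No paired analysis was possible because there was 1 group.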
